A study of Mus musculus with 143 samples.

Results

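Oocytes lacking DIS3 were compared between 2 ages: 8 libraries of adult oocytes at the germinal vesicle (GV) stage and 8 libraries of oocytes from mice at postnatal day 20 (p20), all from Dis3 conditional knockout (cKO) females. The libraries were chosen by assay, genotype and stage in their titles, and make up 16 of the 143 samples of the series and 16 of its 48 RiboMinus libraries, in which total RNA was sequenced after depletion of ribosomal RNA. The series studies mouse oocytes without the exosome ribonucleases DIS3 or EXOSC10. The question here is how the RNA content of the oocyte differs between p20 and the adult GV stage when DIS3 is absent, and whether it differs in the same way in controls (8 adult GV and 8 p20 libraries).

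DIS3 is a ribonuclease of the RNA exosome, which trims and degrades RNA from its 3′ end, including noncoding transcripts made by pervasive transcription. A mouse oocyte grows while arrested in meiotic prophase, its large nucleus being the germinal vesicle, and it accumulates messages and proteins that the egg and early embryo will use. Towards the end of growth transcription becomes silent, so later RNA levels depend on the stability of stored RNA.

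Each library was made from 1 oocyte. Adult mutant libraries carry the stage GV, which the series text calls adult, the genotype dis3cKO and the title tags AM1713 and AM1757, with 4 oocytes each. The p20 mutant libraries carry the labels p20 and dis3cKO and the title tags 1 and 2, also with 4 oocytes each. Adult controls have the tags AM1758 and AM1759 and p20 controls the tags 1 and 2. The labels do not say what a tag stands for and name no animal, so p-values below measure the spread between these oocytes, some of which may share an animal. They describe the mutants as made with CRISPR/Cas9 and do not name the Cre driver or the deleted exons. GV oocytes were dissected from ovaries and kept in M2 medium, per the labels. Age, title scheme and any difference in preparation between the adult and p20 sets coincide completely, so they cannot be told apart in either genotype. Each of the 4 groups also has its own titles, so a preparation effect limited to 1 group cannot be told apart from a difference between genotypes.

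Library totals moved with age. Adult Dis3 cKO libraries held 1.61e+07, 2.73e+07 and 3.54e+07 gene counts (lowest, median and highest) and p20 Dis3 cKO libraries 9.57e+06, 1.28e+07 and 1.53e+07. Counts of the ERCC spike-in, a mix of synthetic RNAs, ranged from 68865 to 192786 in adult mutants and from 8382 to 19808 in p20 mutants. For each ERCC count there were 152, 238 and 360.5 gene counts in adult and 547, 1087 and 1201 in p20 mutants. No adult library reached the lowest p20 library, and the log2 ratio was lower by 1.99 in adults (-1.99 ± 0.21, SE, n = 8 and 8; 2-sided exact permutation test, adjusted p = 0.000186 over 6 quantities). Controls showed ratios from 336 to 487 in adults and from 1043 to 1600.1 at p20, a log2 difference of -1.65, and the genotypes did not differ past the threshold in this change (-0.33, permutation p = 0.140). The labels state the dilution of the ERCC mix for the poly(A) libraries and not for the RiboMinus libraries, so whether each oocyte received the same amount is not known. Therefore all fold changes below are relative to the bulk of the RNA of each library (trimmed mean of M-values, TMM), with levels as CPM, counts per scaled library total. With ERCC counts as the scale, the median gene had a log2 change of -1.87 in mutants in place of 0.04, and 13754 genes were lower and 132 higher. Most increases described below then had negative values, some of which were not called as decreases.

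**Figure D1:**
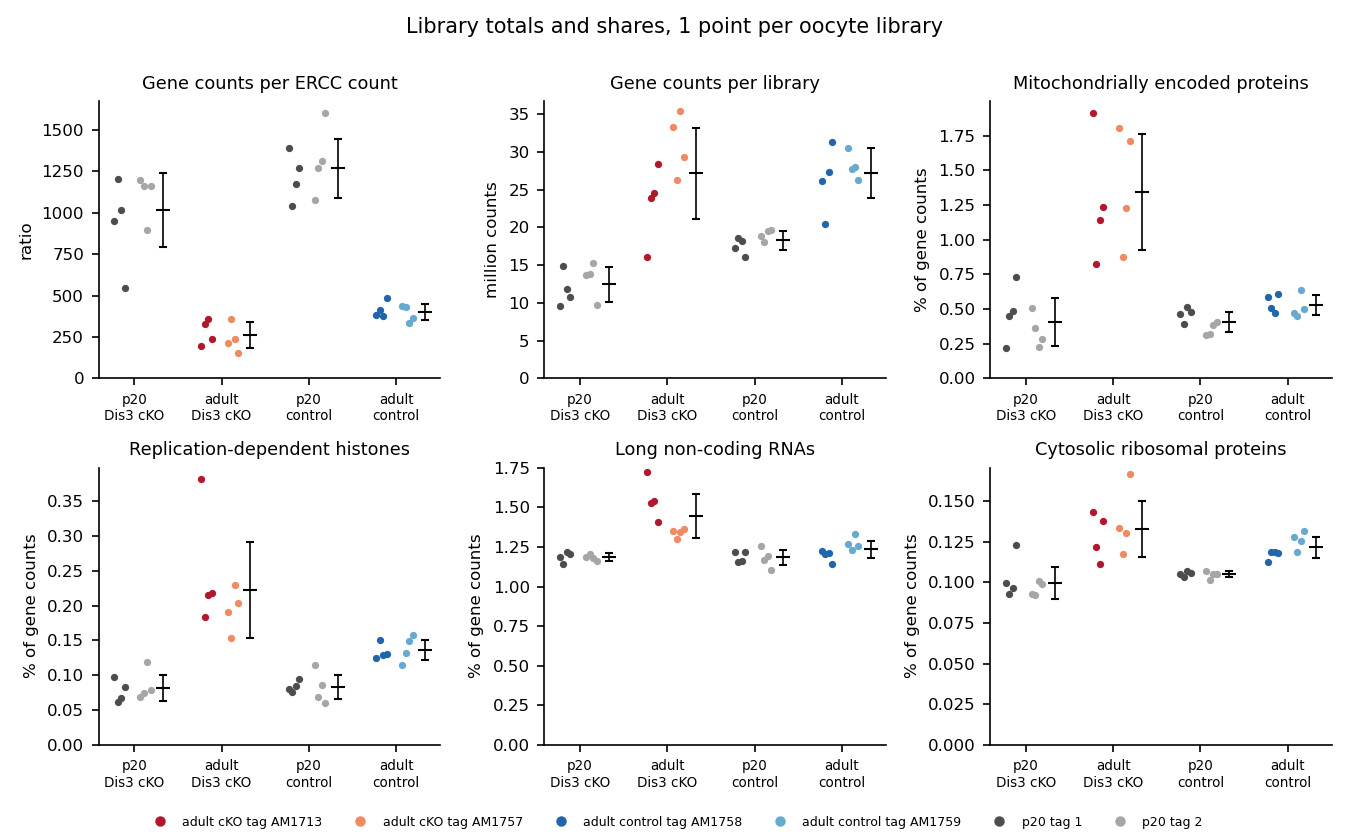
Library totals and shares in the 4 groups, 1 point per oocyte library and coloured by title tag, with the mean and SD as bars; the vertical axes are a ratio, counts or % of gene counts. Gene counts per ERCC count lay between 152 and 360 in adult Dis3 cKO oocytes and between 547 and 1201 in p20 Dis3 cKO oocytes. The shares of mitochondrially encoded protein messages and of histone messages were higher in the adult mutants under this scale of shares.

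Dis3 (ENSMUSG00000033166; GRCm38, chromosome 14, 99076634 to 99099780) was low in every mutant library. Its level was 0.675, 1.80 and 3.25 CPM (lowest, median and highest) in adult mutants and 1.27, 1.66 and 4.01 CPM in p20 mutants, against 8.75 to 21.7 CPM in adult and 6.15 to 19.6 CPM in p20 controls. The controls differed by tag, with means of 20.6 CPM in AM1758 and 10.2 CPM in AM1759. At p20 the control means were 17.3 CPM in tag 1 and 9.27 CPM in tag 2. What sets these control tags apart was not tested. No mutant library overlapped a control library, and the mutants did not differ with age past the threshold (log2 -0.17 ± 0.31, adjusted p = 0.683, edgeR quasi-likelihood test with Benjamini-Hochberg adjustment, as for every gene below). The direction of that small difference turned without tag AM1757 (0.14), without p20 tag 1 (0.13) or without 1 p20 library (0.05). Exosc10, the nuclear exosome's other catalytic ribonuclease, was at 101 to 167 CPM in adult and 102 to 135 CPM in p20 mutants, which overlap (log2 0.19 ± 0.09, adjusted p = 0.083). Its change was -0.015 without AM1757. It passed the threshold without AM1713 (0.36), and without library AM1713_1 (0.24) or AM1713_3 (0.23) alone.

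All 12 oocyte markers examined were detected, and their summed level ranged from 8673 to 11530 CPM in adult and from 11660 to 15500 CPM in p20 mutants. Markers of the granulosa and cumulus cells that surround the oocyte summed to 152.9 to 263 CPM in adult and 240.4 to 296 CPM in p20 mutants. Of these 22 markers 17 were tested, 2 were called higher and 4 lower in adult mutants, and Amh, Foxl2 and Fst reached at most 1.93, 1.43 and 1.29 CPM in any mutant library. Other members reached higher levels, with up to 129 CPM for Nr5a2, 110 CPM for Esr2, 45.2 CPM for Kitl, 30.7 CPM for Cyp19a1, 14.2 CPM for Ptgs2 and 11.1 CPM for Has2. Of 17 theca, stroma, blood and immune markers 2 were tested and neither was called, and 8 had 0 counts in all 16 mutant libraries. Their sum ranged from 30.1 to 87.7 CPM in adult and from 63.3 to 77.7 CPM in p20 mutants, and nearly all of it was Pecam1.

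Between p20 and the adult stage, 6881 of 16173 tested genes (42.5%) differed in Dis3 cKO oocytes: 3583 (22.2%) were higher and 3298 (20.4%) lower in adults. At least 2-fold changes numbered 1393 higher (8.61%) and 1029 lower (6.36%), and for 1364 genes (8.43%) the 8 adult and 8 p20 libraries did not overlap. In controls 3843 genes (23.8%) differed, 1786 higher (11%) and 2057 lower (12.7%), with at least 2-fold changes in 415 (2.57%) and 697 (4.31%). The 2 comparisons share no library. A total of 2404 genes were called in the same direction in both genotypes and 131 in opposite directions. Scaling to total gene counts in place of TMM gave 4073 higher and 2916 lower genes in mutants.

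The change with age was tested directly for a difference between genotypes (the log2 change in mutants minus that in controls). It was called for 1967 genes (12.2%), 1082 positive (6.69%) and 885 negative (5.47%), with at least 2-fold differences in 692 (4.28%) and 274 (1.69%). This count rests on few oocyte sets. It was 3611 without tag AM1757 and 1077 without AM1713. It was 1164 without the adult control tag AM1758, 1223 and 1270 without p20 control tags 1 and 2, and 1195 without p20 Dis3 cKO tag 2. Treating each title tag as 1 sample, by summing the counts of its 4 oocytes, left 1757 higher and 1932 lower genes for age in mutants, and 92 genes for the difference between genotypes, against 2481 at an unadjusted p under 0.05. Of 56 genotype differences called for genes singled out here, 43 lost their call with summed tags. The other 13 were those of Ptprv, Rhbdf1, Myo7a, Stra6l, Rbm44, Mapkapk2, Pxdn, Tmem175, Kctd21, Cntn2, Nptx2, Slc7a1 and Slc35a1. Of the same 56 differences, 21 lost their call with ERCC scaling and 20 with limma voom and the tag as a random effect. Over all genes, scaling to total gene counts gave 1395 positive and 695 negative differences.

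**Figure D2:**
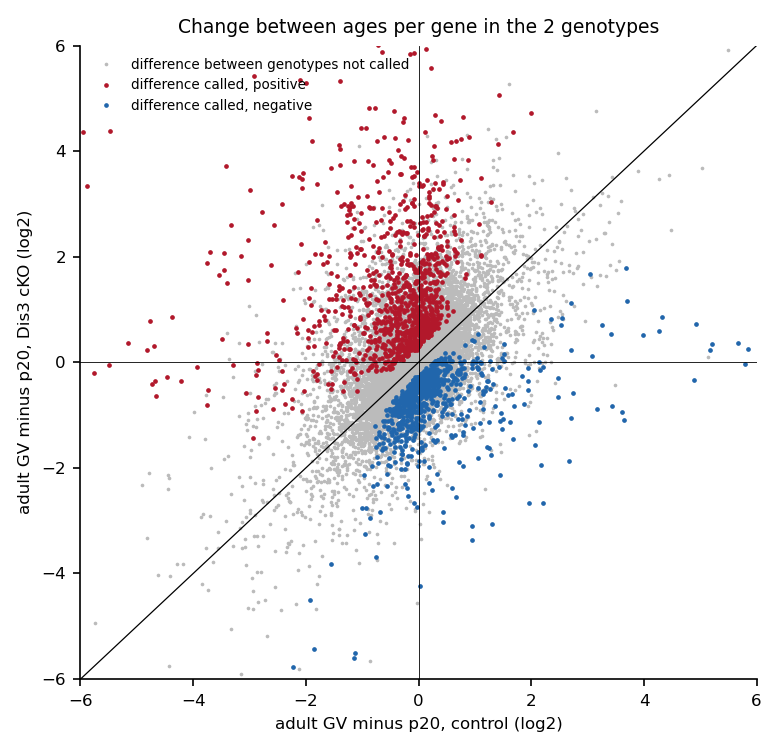
Change from p20 to adult GV per gene, in controls (horizontal axis, log2) and in Dis3 cKO oocytes (vertical axis, log2), with TMM scaling; the line marks equal change and 51 genes lie outside the plotted range. Red points are the 1082 genes with a positive and blue points the 885 genes with a negative called difference between genotypes, and grey points are the other genes tested.

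The adult mutants were not 1 uniform set. In a principal component analysis of the 16 mutant libraries, the first component (36.7% of the variance) placed adult libraries between 15.1 and 66.2 and p20 libraries between -42.2 and -33.7. The second component (19.7%) separated the adult tags, with AM1713 between -7.37 and 46.0 and AM1757 between -50.1 and -25.8. Values per tag are given below for some genes only. Among those without them, Smarcc2 averaged 175 CPM in AM1713 and 86.5 CPM in AM1757, and Srrt 169.7 and 85.4 CPM. Further examples are Dlgap1 (32.6 and 13.9 CPM), Dusp23 (32.3 and 15.5 CPM), Rpph1 (23.5 and 11.3 CPM), Fbxl18 (24.5 and 12.8 CPM) and Trim15 (59.5 and 139.5 CPM).

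**Figure D3:**
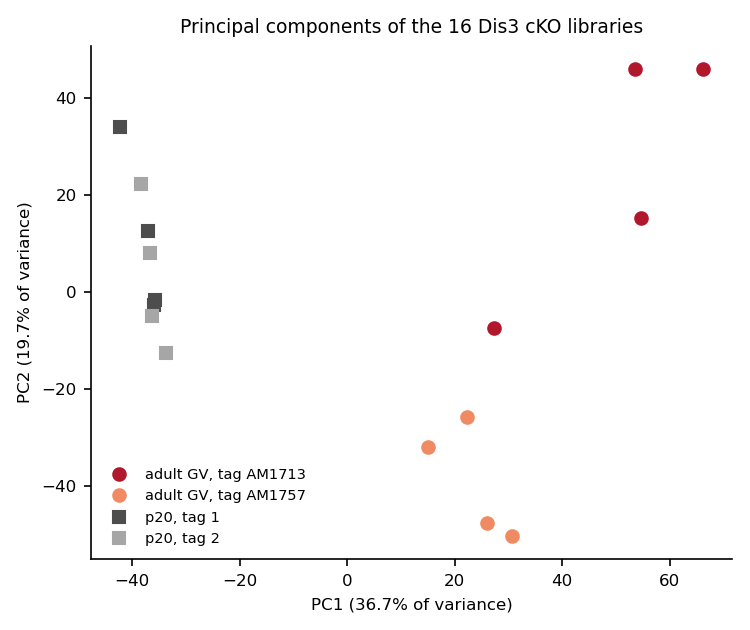
Principal components of the 16 Dis3 cKO libraries from log2(CPM + 1) values, with circles for adult GV and squares for p20 oocytes and 1 colour per title tag. Adult and p20 libraries are apart on the first axis (36.7% of variance), and the adult tags AM1713 and AM1757 are apart on the second (19.7%).

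Gene lists of oocyte biology are described by how many members were called and by their median, beside the 22.2% higher, 20.4% lower and median of 0.04 of all genes tested. In controls 11% of all genes were higher and 12.7% lower. A smaller count in controls alone therefore does not show that a list changed less there. With summed tags 1757 of all 16173 genes were higher and 1932 lower in mutants. Those counts were 2847 and 3079 without AM1713, and 3260 and 3148 without AM1757. Among lists with at least 7 tested genes, the KIT, PI3K, FOXO3 and mTOR list had the largest share of lower members (75.0%), and every tested member of the mitochondrially encoded list was higher with TMM scaling. With summed tags a genotype difference was called in 2 of the lists only, for 6 lncRNAs positively and 3 negatively and for 1 amino acid transporter gene negatively. The age calls in mutants were then fewer in many lists, with 4 higher and 1 lower for the exosome list, 6 and 4 for meiotic arrest and resumption, 12 and 0 for cytosolic and 18 and 0 for mitochondrial ribosomal proteins, and 9 and 0 for the proteasome. They were 12 and 0 for histones, 2 and 5 for zona pellucida and fertilization, 2 and 5 for CCR4-NOT and 4 and 6 for amino acid transporters. The number of age calls did not change for oocyte identity markers (1 higher and 7 lower), mitochondrially encoded genes (7 and 0) and abundant small structured RNAs (2 and 0).

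**Figure D4:**
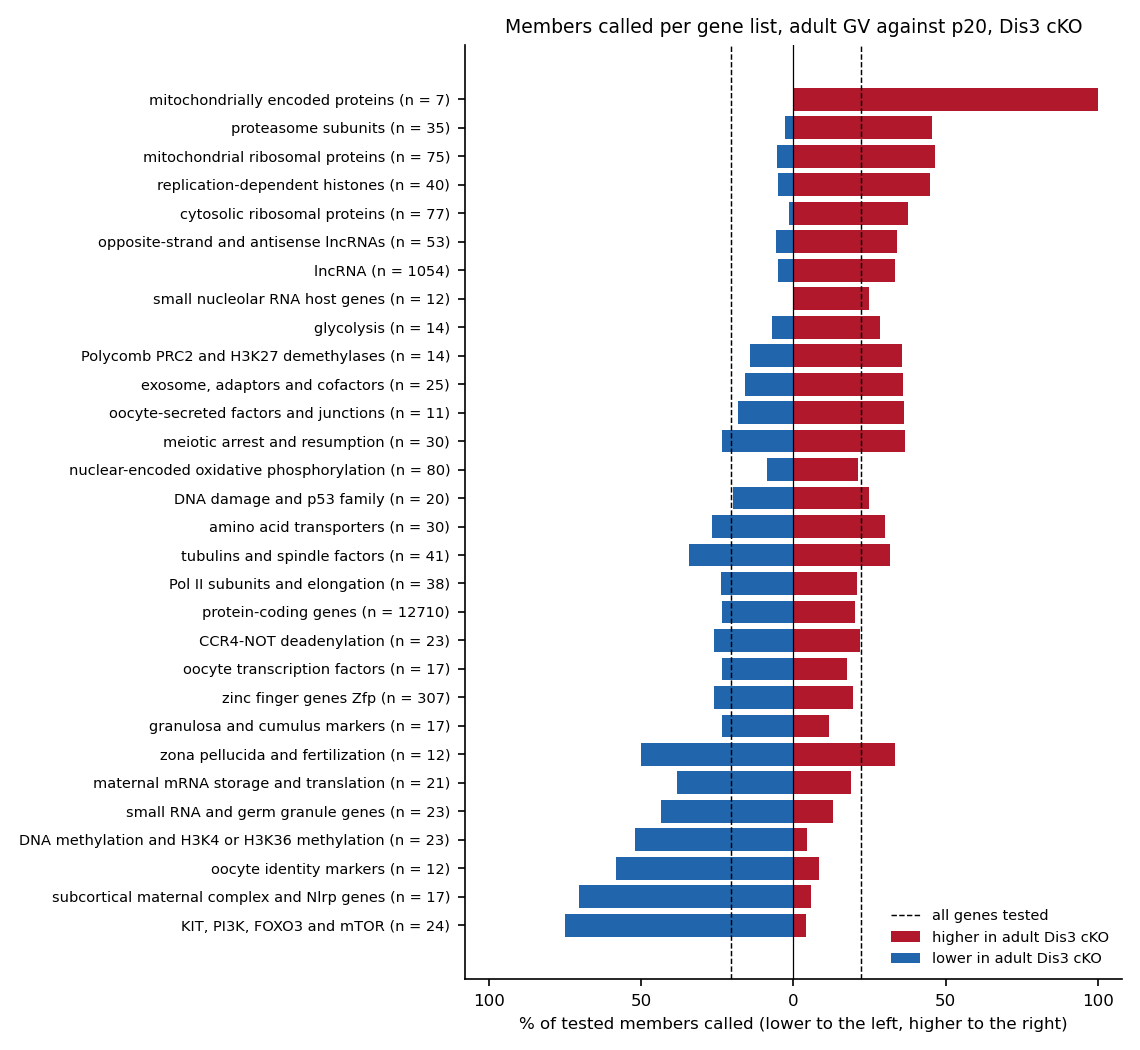
Share of tested members of each gene list that were called lower (left, %) or higher (right, %) in adult against p20 Dis3 cKO oocytes with TMM scaling, with the number tested beside each name and all genes tested as dashed lines (22.2% higher and 20.4% lower). The mitochondrially encoded genes, with 7 of 7 higher, lie at one end and the KIT and mTOR genes, with 18 of 24 lower, at the other; with ERCC scaling the mitochondrial median turns from 1.71 to -0.27.

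Signalling through KIT and PI3 kinase drives oocyte growth, with mTOR complexes downstream. Of its 24 listed genes 18 fell and 1 rose in adult mutants (median log2 -0.43), and 10 were lower and 1 higher in controls. Without tag AM1713 13 were lower, and with summed tags 11. Kit, the receptor for KIT ligand, was at 134, 422 and 535 CPM in adult and 578, 659 and 779 CPM in p20 mutants. All adult libraries lay below all p20 libraries, and Kit fell by 0.78 (log2 -0.78 ± 0.14, adjusted p = 5.25e-05), with means of 288 CPM in AM1713 and 483 CPM in AM1757. Kit was at 544 to 679.5 CPM in adult and 615 to 756 CPM in p20 controls (log2 -0.21 ± 0.14, adjusted p = 0.316), and the difference between genotypes just missed the threshold (adjusted p = 0.0578).

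Rictor, the defining subunit of mTOR complex 2, was at 198, 219.8 and 254 CPM in adult and 410.4, 431 and 468 CPM in p20 mutants. The groups were far apart, and Rictor fell by 0.96 (-0.96 ± 0.06, adjusted p = 4.18e-15). In controls the change was -0.21 ± 0.05, and the genotypes differed (-0.75 ± 0.08, adjusted p = 1.58e-08), a call lost with summed tags (adjusted p = 0.0808). Other members that fell were Rptor, the scaffold of mTOR complex 1, Pdpk1, a kinase of the PI3 kinase pathway, Pik3ca, a catalytic subunit of PI3 kinase, and Mtor, the kinase of both complexes. The member called higher was Rheb, the GTPase that activates mTOR complex 1, at 48 to 74.5 against 42 to 65 CPM (0.24 ± 0.09, adjusted p = 0.0328). That call was lost with summed tags (adjusted p = 0.139) and in 10 of the 24 fits that left out libraries (0.19 without AM1713 and 0.16 without p20 tag 1), and with ERCC scaling Rheb was lower (-1.66).

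The subcortical maternal complex is an assembly beneath the egg membrane that early embryos need, and Nlrp genes encode related oocyte proteins. Of 17 tested genes 12 fell and 1 rose (median -0.60), and in 9 the groups did not overlap, against 8.43% of all genes (720 of them lower). In controls 10 were lower and 1 higher (median -0.32). Nlrp5, which encodes the core member MATER, was at 540.1, 584 and 681 CPM in adult and 1054, 1213 and 1654 CPM in p20 mutants. Every adult library was below every p20 library, and Nlrp5 fell by 1.11 (-1.11 ± 0.09, adjusted p = 7.49e-11). It was also lower in adult controls (-0.62 ± 0.09, adjusted p = 1.04e-05), less so than in mutants (difference -0.49 ± 0.13, adjusted p = 0.0127). That difference lost its call without adult control tag AM1759 (-0.35) or p20 control tag 1 (-0.48).

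Tle6, another subunit, was at 529, 646 and 725 CPM in adult and 873, 935 and 1133 CPM in p20 mutants, again without overlap (-0.60 ± 0.07, adjusted p = 3.22e-08), and fell by 0.21 in controls. Its difference between genotypes was -0.39 and was not called without AM1759 (-0.32). Zbed3, a complex member that rose, was at 9021 to 13399 CPM in adult and 6161 to 8335 CPM in p20 mutants (0.53 ± 0.08, adjusted p = 6.12e-06), and with ERCC scaling it was lower (-1.39).

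Of the 12 oocyte identity markers 7 fell and 1 rose in mutants (median -0.46), and 6 fell and 2 rose in controls. Gdf9, a growth factor that the oocyte sends to its follicle cells, was at 965, 1965 and 3276 CPM in adult and 3307, 4185 and 4703 CPM in p20 mutants. The highest adult library lay just under the lowest p20 library, and Gdf9 fell by 1.01 (-1.01 ± 0.20, adjusted p = 0.000103), with means of 2541 CPM in AM1713 and 1532 CPM in AM1757. Controls gave -0.48 ± 0.20 (adjusted p = 0.068), and a difference between genotypes was not called (adjusted p = 0.226).

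Bmp15, the related factor, fell by 0.43 in mutants (adjusted p = 4.39e-05) and by 0.28 in controls. Zp2, a zona pellucida glycoprotein, fell by 0.61 in mutants and by 0.56 in controls, with overlap between the mutant ages (728 to 903 and 826 to 1926 CPM). Oosp1, an oocyte-secreted protein, was called higher in both genotypes (0.58 and 0.38), but lower in mutants with ERCC scaling (-1.35).

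Of 12 tested zona pellucida and fertilization genes 6 fell and 4 were called higher (median -0.17, and -2.13 with ERCC scaling), and of 11 genes of oocyte-secreted factors and junctions 2 fell and 4 were called higher (median 0.06, and -1.86 with ERCC scaling). For the latter list 4 were lower and none higher without AM1757 (median -0.10), and 2 were lower and none higher with summed tags. The zona pellucida median was 0.02 without AM1713, with 5 lower and 4 higher, and -0.36 without AM1757, with 6 lower and 2 higher. Astl, the protease that cleaves ZP2 after fertilization, was at 69.5, 105 and 143 CPM in adult and 166, 233 and 385 CPM in p20 mutants. No libraries overlapped, and Astl fell by 1.25 in mutants (adjusted p = 5.54e-08) and by 0.85 in controls. Cd9, a membrane protein needed for fusion with sperm, was at 15.2, 22.4 and 28.5 CPM in adult and 38.5, 57.6 and 75.2 CPM in p20 mutants. Here too the groups were apart, and Cd9 fell by 1.35 (adjusted p = 6.55e-08). Its control change was -0.61 and the difference of -0.74 (adjusted p = 0.0284) was lost without AM1713 (-0.63), AM1759 (-0.67), p20 control tag 1 (-0.71) or p20 Dis3 cKO tag 1 (-0.64).

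Chromatin genes that shape the oocyte's DNA methylation mostly fell or were not called: 12 of 23 tested fell and 1 rose (median -0.23), against 6 lower and 2 higher in controls. The lower members were 52.2% in mutants, against 20.4% of all genes, and 26.1% in controls, against 12.7% of all genes. Dnmt1, the maintenance DNA methyltransferase, was at 881, 2769 and 3708 CPM in adult and 3916, 4419 and 5184 CPM in p20 mutants. The ages did not overlap, and Dnmt1 fell by 0.81 (-0.81 ± 0.16, adjusted p = 0.000116). The tags differed, with means of 1763 CPM in AM1713 and 3365 CPM in AM1757. In controls Dnmt1 was at 4089 to 4905 CPM in adults and 4510.0 to 5646 CPM at p20, and the difference between genotypes (-0.73, adjusted p = 0.0263) lost its call without either control tag of either age (-0.76 to -0.72) or without p20 Dis3 cKO tag 1 (-0.69) or 2 (-0.79). It was -0.35 without AM1713 and -1.28 without AM1757, called in both.

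Kdm1b, a histone demethylase needed to set maternal imprints, was at 177, 267 and 334 CPM in adult and 390.4, 458 and 556 CPM in p20 mutants. The groups were apart, and Kdm1b fell by 0.83 in mutants and by 0.89 in controls. The member called higher, the H3K4 methyltransferase gene Kmt2a, was at 52.4 CPM in 1 AM1713 library, and its median was 1.60 CPM in adult and 0.871 CPM in p20 mutants. Without tag AM1713 Kmt2a was not called (0.71). Its difference between genotypes (3.63) lost its call in 9 of the 24 fits that left out libraries. It was 0.73 without AM1713, 2.46 without library AM1713_3 and 3.41 without library AM1713_1. The call was also lost without either tag of the adult controls, the p20 controls or the p20 mutants (3.18 to 3.97).

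Of 23 small RNA and germ granule genes 10 fell and 3 rose (median -0.29). Ago2, the slicing Argonaute of RNA interference, was at 26.9, 37.2 and 58.9 CPM in adult and 84.8, 117 and 184 CPM in p20 mutants. All adult libraries were below the p20 libraries, and Ago2 fell by 1.65 in mutants (adjusted p = 1.59e-07) and by 0.90 in controls. Mael, a germ granule protein, was called higher (0.77 ± 0.16, adjusted p = 0.000188), not so without AM1713 (0.34), and lower with ERCC scaling (-1.10).

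Of 21 genes of maternal mRNA storage and translation 8 fell and 4 rose. Ddx6, an RNA helicase of translational repression, was at 35, 54.2 and 75.2 CPM in adult and 113, 147 and 211 CPM in p20 mutants. The ages did not overlap, and Ddx6 fell by 1.46 in mutants and by 0.91 in controls. Pabpn1l, an oocyte poly(A)-binding protein, was at 139 to 229.6 CPM in adult and 69.3 to 141 CPM in p20 mutants, called higher in both genotypes (0.63 and 0.68) and lower in mutants with ERCC scaling (-1.28).

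Among 23 genes of CCR4-NOT deadenylation and linked decay 6 fell and 5 rose, close to the shares over all genes. Xrn1, the cytoplasmic 5′ to 3′ exonuclease, was at 41.3, 63.7 and 76.2 CPM in adult and 102, 130.0 and 151 CPM in p20 mutants. The groups were apart, and Xrn1 fell by 1.03 (adjusted p = 1.11e-08), while controls gave -0.13 ± 0.11 (adjusted p = 0.443) and the genotypes differed (-0.91 ± 0.16, adjusted p = 0.000173). Cnot1, the scaffold of the deadenylase, fell by 0.55 in mutants and by 0.29 in controls, and its difference of -0.26 was lost in 14 of the 24 fits that left out libraries (-0.28 to -0.19). Btg4, an adaptor of this deadenylase in maternal mRNA decay, was called higher in mutants (0.37 ± 0.09, adjusted p = 0.00152) and controls (0.30), not without AM1757 (0.20), and lower with ERCC scaling (-1.57).

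Of 30 genes of meiotic arrest and resumption 11 were called higher and 7 lower (median 0.14, or -1.80 with ERCC scaling, where all 30 were lower). Pde3a, the phosphodiesterase that breaks down the cAMP holding the oocyte in arrest, was at 175, 222 and 326 CPM in adult and 430.1, 537 and 606 CPM in p20 mutants. No adult library reached a p20 library, and Pde3a fell by 1.20 (-1.20 ± 0.09, adjusted p = 1.38e-11). In controls Pde3a was at 496, 510.5 and 549 CPM in adults and 551, 585 and 626 CPM at p20 (log2 -0.17 ± 0.09, adjusted p = 0.181), so the adult mutants lay below all other libraries. The genotypes differed (-1.03 ± 0.13, adjusted p = 1.36e-06; adjusted p = 0.0776 with summed tags), and both adult mutant tags were low (means 196 and 269.7 CPM).

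Of the genes that drive entry into and exit from meiotic M phase, Ccnb1, which encodes cyclin B1, was at 291 to 346 CPM in adult and 202 to 265 CPM in p20 mutants. Arpp19, an inhibitor of the phosphatase PP2A, was at 142 to 217 and 95 to 129.6 CPM. Cdc20, an activator of the anaphase-promoting complex, was at 68 to 90 and 41.6 to 66.8 CPM. In these 3 genes the adult mutant libraries lay above the p20 libraries, with log2 changes of 0.43, 0.56 and 0.59, and with ERCC scaling each was lower (-1.48, -1.34 and -1.33). Arpp19 differed between genotypes (0.75 ± 0.12, adjusted p = 2.71e-05), its control change being -0.19.

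**Figure D5:**
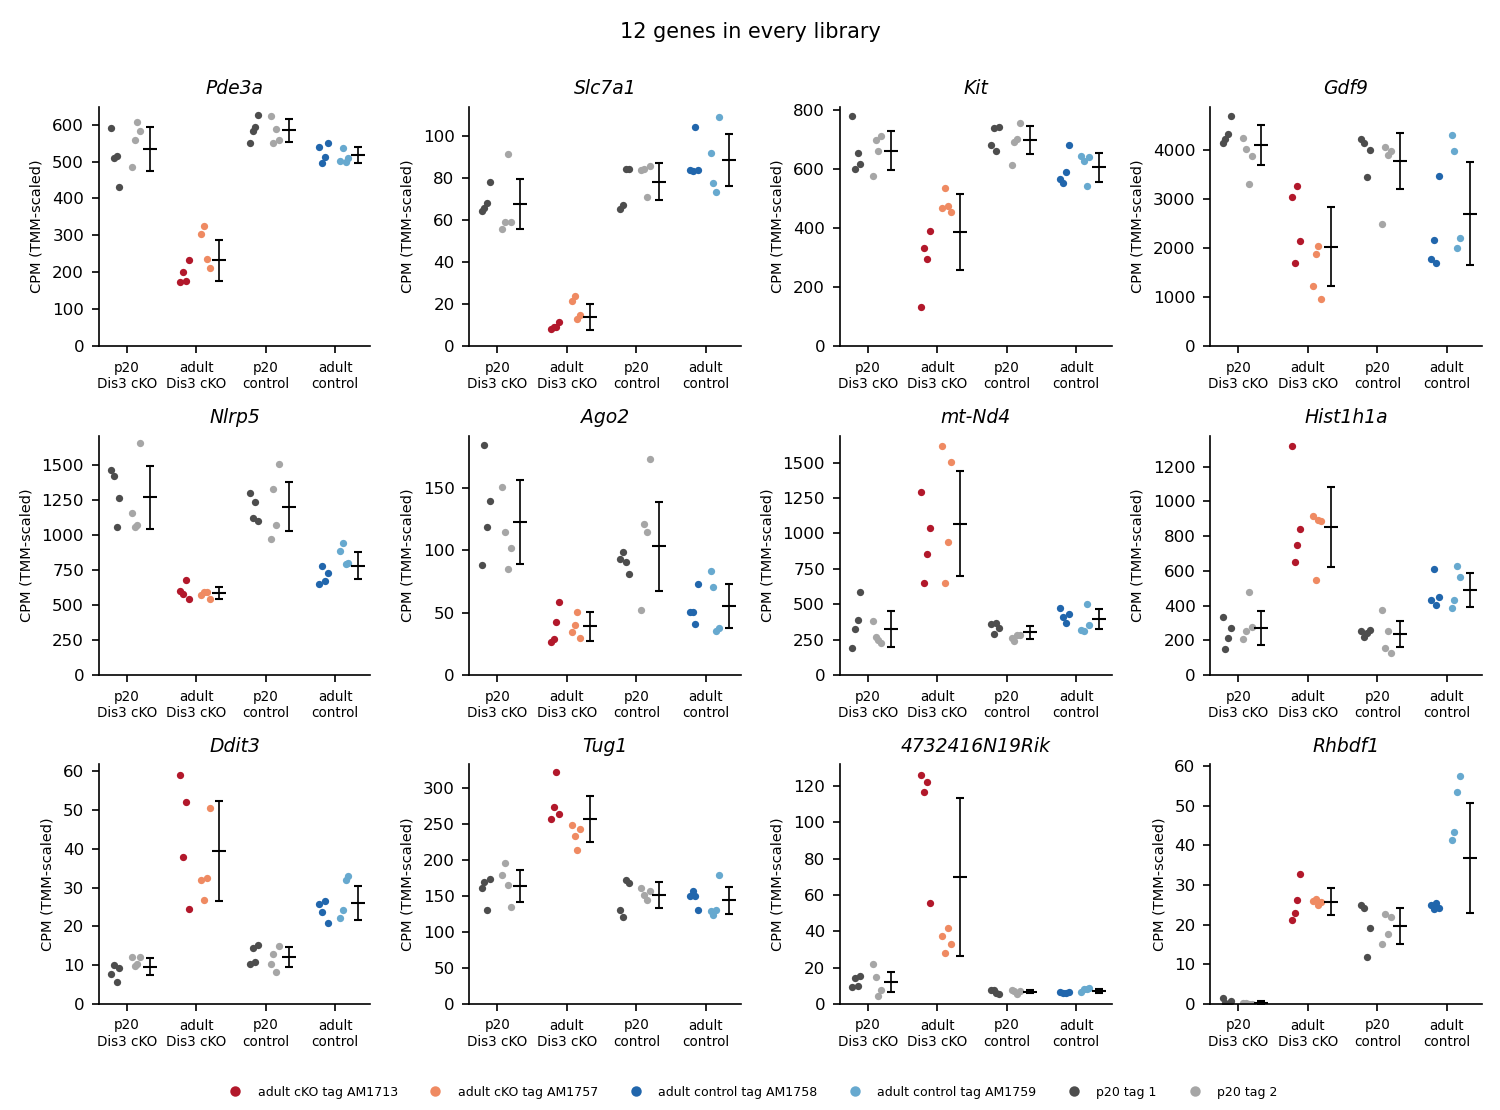
Level of 12 genes in every library (CPM with TMM scaling, axes from 0), 1 point per oocyte coloured by title tag, with the group mean and SD as bars. Pde3a, Slc7a1, Kit, Gdf9, Nlrp5 and Ago2 were lower in adult than in p20 mutants, and mt-Nd4, Hist1h1a, Ddit3, Tug1, 4732416N19Rik and Rhbdf1 were higher with this scaling, of which mt-Nd4, Hist1h1a and Tug1 had negative values with ERCC scaling, Ddit3 (0.08) and 4732416N19Rik (0.65) lost their call with it, and Rhbdf1 was still called higher.

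Messages of the mitochondrially encoded protein genes took a larger share of counts in adult mutants: 0.827, 1.23 and 1.91% (lowest, median and highest) against 0.219, 0.406 and 0.728% at p20. Mitochondrial ribosomal and transfer RNAs are not part of this share. The groups did not overlap, and the share rose 3.41-fold (log2 1.77 ± 0.27, exact permutation test, adjusted p = 0.000186). In controls the log2 change was 0.38, and the genotypes differed by 1.39 (permutation test, adjusted p = 0.00024). Of 13 mitochondrially encoded protein genes 7 were tested, and all 7 rose with TMM scaling (median 1.71), whereas with ERCC scaling none rose, 2 fell and the median was -0.27. The other 6 genes had at most 7 counts in any library, and nuclear copies of mitochondrial sequence can take such reads. In controls 1 of 7 was higher. All 7 differed between genotypes, and none did with summed tags.

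Within that list mt-Nd4, a subunit of respiratory complex I, was at 647, 989 and 1619.6 CPM in adult and 189, 299 and 587 CPM in p20 mutants. Every adult mutant library was above every p20 mutant library, and mt-Nd4 rose (1.71 ± 0.19, adjusted p = 1.68e-08; -0.27 with ERCC scaling), with both adult tags high (958 and 1179.8 CPM). Adult controls were at 308 to 503 CPM and p20 controls at 237 to 367 CPM. mt-Nd1, mt-Cytb and mt-Co1, which encode parts of complexes I, III and IV, changed by 2.07, 1.69 and 1.14, and the latter pair had -0.30 and -0.83 with ERCC scaling. For mt-Co1 the difference between genotypes (0.83) was lost without AM1713 (0.80), either adult control tag (0.84 and 0.81), p20 control tag 1 (0.67), p20 Dis3 cKO tag 2 (0.66) or 1 AM1713 library (0.72).

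Replication-dependent histone messages, which end in a stem-loop without a poly(A) tail, made up 0.153, 0.210 and 0.382% of counts in adult mutants and 0.0608, 0.0767 and 0.119% at p20. There was no overlap, and the share rose 2.7-fold (log2 1.44 ± 0.17, exact permutation test, adjusted p = 0.000186). Controls rose 1.66-fold, less than the mutants (difference 0.70, permutation test, adjusted p = 0.00228). Of 40 tested genes 18 were called higher and 2 lower (median 0.62, and -1.26 with ERCC scaling, where 1 was higher and 25 lower). In controls 14 were higher and 1 lower, and 3 genes differed positively between genotypes and 1 negatively, against 6.69% and 5.47% of all genes. That balance turned to 1 and 2 without AM1713 (median difference from 0.23 to -0.19), to 0 and 1 with ERCC scaling, and to 0 and 0 with summed tags or with limma voom and the tag as a random effect. Histone genes have near-identical copies, so counts of single members are uncertain where reads were shared.

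In 5 of the 40 histone genes the adult mutant libraries all lay above the p20 libraries with TMM scaling, against 644 of all 16173 genes (8.43% did not overlap in either direction): Hist1h3f, Hist1h1a, Hist1h4a, Hist1h4c and Hist1h2bj. The promoters of 4 of them, from 150 bases before the start of the gene, are given because these genes shared this lack of overlap in mutants (RefSeq, GRCm38.p6). Hist1h3f was not matched. Hist1h1a lies at chr13:23763518-23763667 on the plus strand, Hist1h4a at chr13:23761250-23761399 on the minus strand, Hist1h4c at chr13:23698459-23698608 on the minus strand and Hist1h2bj at chr13:22043048-22043197 on the plus strand, each written 5′ to 3′ along its gene. Capitals mark the CCAAT box (or ATTGG, the same box on the other strand) and TATAAA, searched on both strands, and no matches overlapped.
Hist1h1a: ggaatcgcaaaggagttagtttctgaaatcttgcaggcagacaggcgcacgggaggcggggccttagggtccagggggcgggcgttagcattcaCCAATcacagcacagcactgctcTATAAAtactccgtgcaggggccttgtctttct
Hist1h4a: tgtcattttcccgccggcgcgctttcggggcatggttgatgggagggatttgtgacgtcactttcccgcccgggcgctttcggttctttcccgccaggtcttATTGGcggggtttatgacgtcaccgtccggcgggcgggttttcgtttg
Hist1h4c: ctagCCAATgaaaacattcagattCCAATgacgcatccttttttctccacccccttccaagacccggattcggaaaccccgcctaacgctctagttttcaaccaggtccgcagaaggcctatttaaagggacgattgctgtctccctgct
Hist1h2bj: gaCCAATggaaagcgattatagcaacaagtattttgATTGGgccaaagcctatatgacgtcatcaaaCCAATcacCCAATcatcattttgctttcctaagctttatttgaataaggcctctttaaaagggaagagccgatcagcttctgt
All 4 held a CCAAT box (1, 1, 2 and 4 matches) and Hist1h1a alone held TATAAA. Of 32851 promoters of that length 24.5% held CCAAT and 7.57% held TATAAA. The promoters of the other histone genes were not examined separately, so a link of either motif to the change with age was not tested.

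Hist1h3f, encoding a histone H3, was at 443, 535 and 909 CPM in adult and 104, 138 and 236 CPM in p20 mutants (2.01 ± 0.18, adjusted p = 1.36e-10). Hist1h1a, encoding a linker histone H1 and shown above with both motifs, was at 548, 866 and 1319 and 149.9, 261 and 476 CPM (1.65 ± 0.20, adjusted p = 5.86e-08; -0.28 with ERCC scaling). Both were also higher in adult controls (1.11 and 1.05). For Hist1h3f the difference between genotypes (0.90) was lost without p20 control tag 1 (0.87) or p20 Dis3 cKO tag 1 (0.76).

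The histone genes Hist1h4a, Hist1h4c and Hist1h2bj changed by 1.53, 1.30 and 0.89 in mutants, and by -0.37, -0.56 and -1.02 with ERCC scaling. In controls they changed by 1.41, 0.09 and 0.35, and Hist1h4c was not called. Hist1h4c was at 11 to 23.8 CPM in adult and 2.77 to 10.3 CPM in p20 mutants, and at 13.6 to 22.2 and 8.45 to 26.3 CPM in adult and p20 controls, so the p20 mutants held the lowest values and overlapped the p20 controls. Its difference between genotypes (1.22) was lost without AM1713 (1.05) or AM1759 (1.01).

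Called genes of ribosomes and the proteasome were mostly higher with TMM scaling and lower with ERCC scaling. Cytosolic ribosomal protein messages made up 0.112, 0.132 and 0.167% of counts in adult mutants and 0.0924, 0.0978 and 0.123% at p20, which overlap (log2 0.41 ± 0.08, exact permutation test, adjusted p = 0.000622; controls 0.21; difference 0.20, permutation test, adjusted p = 0.0265). Of 77 tested genes 29 were called higher and 1 lower (median 0.29, and -1.65 with ERCC scaling, where 74 were lower), and in controls 15 and 2. Without tag AM1757 15 were higher and 4 lower. Rps15a, a small subunit protein gene, was at 9.19, 13.3 and 17 CPM in adult and 4.46, 6.30 and 7.90 CPM in p20 mutants, with no overlap (1.07 ± 0.16, adjusted p = 3.83e-06; -0.89 with ERCC scaling). Processed pseudogenes share sequence with these genes, so their counts are uncertain.

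Of 75 mitochondrial ribosomal protein genes 35 were called higher and 4 lower in mutants (median 0.28, and -1.63 with ERCC scaling, where 74 were lower), against 9 and 1 in controls. Without AM1757 21 were higher and 6 lower. Of 35 proteasome subunit genes 16 were called higher and 1 lower (median 0.21, and -1.72 with ERCC scaling, where all 35 were lower), against 7 and 3 in controls, and without AM1757 9 were higher and 2 lower. Psmd4, a ubiquitin receptor of the proteasome, was at 193, 231 and 279.6 CPM in adult and 119, 154 and 170.5 CPM in p20 mutants, without overlap (0.66 ± 0.08, adjusted p = 1.94e-07; -1.26 with ERCC scaling).

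Long noncoding RNA (lncRNA) is a class on which the exosome acts. Its share of counts was 1.30, 1.38 and 1.72% in adult mutants and 1.14, 1.19 and 1.22% at p20. No adult library overlapped a p20 library, and the share rose 1.21-fold (log2 0.28 ± 0.05, exact permutation test, adjusted p = 0.000186). It was 1.41 to 1.72% in AM1713 and 1.30 to 1.36% in AM1757, which overlaps adult controls (1.15 to 1.33%). In controls the log2 change was 0.06 (exact permutation p = 0.0681), and the genotypes differed by 0.22 (permutation test, adjusted p = 0.00054). Of 1054 tested lncRNA genes 353 were called higher and 55 lower (median 0.52, and -1.39 with ERCC scaling, where 27 were higher and 636 lower), against 64 and 48 in controls. Without tag AM1713 186 were higher and 57 lower, beside 2847 and 3079 of all 16173 genes, so the share of higher lncRNAs was then near that of all genes. With summed tags 162 were higher and 28 lower, beside 1757 and 1932 of all genes. The difference between genotypes was called for 126 of the 1054 positively and 15 negatively, against 6.69% and 5.47% of all genes. It was called for 41 and 12 without AM1713 (466 and 611 of all genes). With ERCC scaling it was called for 49 and 11 (median difference from 0.46 to 0.23). With summed tags it was called for 6 and 3, and with limma voom and the tag as a random effect for 27 and 7. Among 12710 protein-coding genes 2586 were higher and 2980 lower (median -0.01).

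Among single lncRNAs Tug1 was at 214, 253 and 323 CPM in adult and 131, 168 and 196 CPM in p20 mutants. Every adult mutant library was above every p20 mutant library, adult control library (123 to 179.7 CPM) and p20 control library (121 to 173 CPM). Tug1 rose by 0.65 (0.65 ± 0.09, adjusted p = 9.2e-07; -1.24 with ERCC scaling), the control change was -0.07, and the genotypes differed (0.72 ± 0.13, adjusted p = 0.000215), a call lost with summed tags (adjusted p = 0.103). Snhg18, a host gene of small nucleolar RNA, was at 13.3, 17.3 and 24.1 CPM in adult and 6.04, 7.31 and 10.5 CPM in p20 mutants, again apart (1.23 ± 0.17, adjusted p = 5.76e-07; -0.65 with ERCC scaling).

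The gene 4732416N19Rik (GRCm38, chromosome 6, 148212288 to 148235663) was at 27.9, 48.6 and 126 CPM in adult and 4.60, 12.1 and 22.1 CPM in p20 mutants, and at most 8.78 CPM in controls. The AM1713 oocytes had the highest levels (mean 105 CPM, against 35 CPM in AM1757), and the gene rose by 2.50 in mutants (2.50 ± 0.29, adjusted p = 2.8e-08). Gm11190 (GRCm38, chromosome 11, 77912127 to 77929288) was at 38, 51.8 and 129 CPM in adult and 4.12, 8.80 and 13.4 CPM in p20 mutants, likewise with higher AM1713 values (means 95.7 and 39.8 CPM; log2 2.97 ± 0.27, adjusted p = 2.66e-10). Both differed between genotypes (2.44 and 2.75), and neither did with summed tags. C86187 was lower in adult mutants, at 642, 1209 and 1749 against 1505, 1828 and 2170.0 CPM with overlap (-0.61 ± 0.14, adjusted p = 0.000851), and was not called without AM1713 (-0.25) or with summed tags (adjusted p = 0.0825). These 3 genes and Tug1 were chosen after their values were seen.

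The RNAs Rn7sk, Rmrp and Rpph1, made by RNA polymerase III, were the tested members of a list of abundant small structured RNAs, which took 0.00187, 0.00551 and 0.0106% of counts in adult and 0.00134, 0.00158 and 0.00180% in p20 mutants. All adult mutant libraries were above all p20 mutant libraries (log2 1.65 ± 0.29, exact permutation test, adjusted p = 0.000186), and controls rose by 1.11. Of the 3 members 2 were called higher with TMM scaling and none with ERCC scaling, and without AM1713 2 were higher and 1 lower. Rmrp, the RNA of ribonuclease MRP, was at 0.208 to 33.3 CPM in adult and 1.65 to 7.28 CPM in p20 mutants and was not called (0.92 ± 0.76, adjusted p = 0.343). Rn7sk, which holds back a transcription elongation factor, was at 9.15 to 49.3 CPM in adult and 2.85 to 11 CPM in p20 mutants, which overlap, and rose by 2.14 in mutants and 2.07 in controls (adjusted p for the difference 0.944). Rpph1, the RNA of ribonuclease P, rose by 1.71 in mutants (-0.15 with ERCC scaling) and had 0.35 ± 0.24 in controls (adjusted p = 0.313). Its difference of 1.36 was lost without AM1713 (0.73), AM1758 (1.23) or p20 Dis3 cKO tag 2 (1.22).

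Within the exosome and its adaptors 9 of 25 tested genes were called higher and 4 lower (median 0.18, and -1.75 with ERCC scaling, where all 25 were lower), against 7 and 4 in controls. Exosc9, a subunit of the exosome's ring, was at 3.06, 7.62 and 14.5 CPM in adult and 16.4, 25.7 and 33.4 CPM in p20 mutants. The ages were apart, and Exosc9 fell by 1.67 (adjusted p = 1.22e-07), and by 0.64 in controls. Its difference of -1.02 was lost without AM1757 (-0.73), AM1758 (-0.70), p20 control tag 2 (-0.95) or p20 Dis3 cKO tag 1 (-1.0). Srrt, which links the cap-binding complex to RNA decay and processing, was at 68, 139 and 174 CPM in adult and 47.4, 54.1 and 73.7 CPM in p20 mutants, with overlap (1.14 ± 0.16, adjusted p = 1.25e-06; -0.71 with ERCC scaling), and differed between genotypes (1.30 ± 0.23, adjusted p = 0.000189).

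The 12 genes with the largest increase in adult mutants, among those at 20 CPM or more without overlap and with little spread within groups, had log2 changes from 1.69 to 6.41. Rhbdf1 (GRCm38, chromosome 11, 32209585 to 32222331), an inactive rhomboid protein of growth factor traffic, was at 21.1, 25.8 and 32.9 CPM in adult and 0, 0.143 and 1.38 CPM in p20 mutants, and at 23.8 to 57.6 and 11.8 to 24.9 CPM in adult and p20 controls. The p20 mutants were thus the group apart, and the fitted change of 6.41 depends on the prior count since those libraries were near 0. Ddit3, the stress-induced factor CHOP, was at 24.5, 35.1 and 59.1 CPM in adult and 5.55, 9.97 and 12 CPM in p20 mutants (2.03 ± 0.18, adjusted p = 1.36e-10; 0.08 with ERCC scaling, adjusted p = 0.748), and also rose in controls (1.10 ± 0.17). Its difference between genotypes of 0.93 was lost without AM1713 (0.77), AM1758 (0.83), p20 control tag 1 (0.85) or p20 Dis3 cKO tag 1 (0.72).

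Cdc34b was at 67.9, 93.6 and 125 CPM in adult and 18.2, 27.1 and 36.2 CPM in p20 mutants and at 12.5 to 22.5 and 11.2 to 14.7 CPM in controls, so adult mutants were above all other groups (1.76 ± 0.15, adjusted p = 1.25e-10; -0.15 with ERCC scaling). It is a close copy of the ubiquitin-conjugating enzyme gene Cdc34, so reads could have been shared. Smarcc2, a subunit of the BAF chromatin remodeller, was at 80.7, 103 and 201 CPM in adult and 29.1, 39.8 and 52.5 CPM in p20 mutants, and at 41.9 to 64 and 38.3 to 55.5 CPM in controls (1.69 ± 0.17, adjusted p = 2.06e-09; -0.14 with ERCC scaling). Again the adult mutants stood above the rest.

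The remaining increases with TMM scaling were Dlgap1, a synaptic scaffold gene (2.20 ± 0.33), Tex16 (2.15 ± 0.31), the fucosyltransferase gene Fut10 (2.06 ± 0.24), the phosphatase gene Dusp23 (1.94 ± 0.23), the ubiquitin ligase gene Trim68 (1.88 ± 0.18), and the corepressor gene Cbfa2t3 (1.77 ± 0.26; -0.055 with ERCC scaling), with Hist1h3f and mt-Nd4 as above. With ERCC scaling the changes of Dlgap1, Tex16, Fut10, Dusp23, Trim68, Hist1h3f, Ddit3, 4732416N19Rik, mt-Nd1 and Rn7sk were at most 0.65 and were not called. Fut10 was at 14.1 to 41.3 CPM in adult mutants and at most 7.99 CPM in any other library. Cbfa2t3 rose in controls as well (1.48 ± 0.25, adjusted p = 6.97e-05). The difference between genotypes for Dlgap1 (1.70) was lost without AM1713 (0.95), AM1758 (1.60), p20 control tag 2 (1.28) or p20 Dis3 cKO tag 1 (1.39). That for Tex16 (1.52) was lost without AM1757 (1.03), AM1758 (1.52), AM1759 (1.51), p20 control tag 1 (1.21) or p20 Dis3 cKO tag 1 (1.38).

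The 12 largest decreases under the same rule ranged from -3.82 to -1.91. Slc7a1, a transporter of cationic amino acids, was at 8.01, 12.3 and 24.1 CPM in adult and 55.6, 65.3 and 91.7 CPM in p20 mutants. Adult controls were at 73.6, 84 and 109 CPM and p20 controls at 65.2, 84.2 and 85.9 CPM, so only the adult mutants were low, with both tags low (means 9.48 and 18.4 CPM). Slc7a1 fell by 2.28 (-2.28 ± 0.17, adjusted p = 3.37e-12), and the genotypes differed by -2.46 ± 0.23 (adjusted p = 1.78e-09). Of 30 tested amino acid transporter genes 9 were called higher and 8 lower (median -0.08), and without AM1713 4 and 8.

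Slc35a1, the Golgi transporter of the sialic acid donor, showed the same arrangement: 4.70, 5.54 and 9.90 CPM in adult and 19.4, 24.1 and 34.2 CPM in p20 mutants, and 25.1 to 35.9 and 25.2 to 36.5 CPM in controls. It fell by 1.97 in mutants (adjusted p = 4.25e-12), with a difference between genotypes of -1.96 ± 0.20 (adjusted p = 1.38e-08). Kctd21 was at 2.73, 4.19 and 7.58 CPM in adult and 31.8, 46.4 and 52.3 CPM in p20 mutants, and at 2.93 to 6.27 and 1.37 to 4.64 CPM in controls. Here the p20 mutants were the group apart (-3.36 ± 0.22, adjusted p = 1.4e-13).

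Sspn, encoding the membrane protein sarcospan, was at 3.19, 4.09 and 6.14 CPM in adult and 48.7, 59.6 and 64.3 CPM in p20 mutants (-3.82 ± 0.48, adjusted p = 1.21e-07). Adult controls ranged from 3.88 to 59.7 CPM and split by tag, with means of 54.5 CPM in AM1758 and 4.29 CPM in AM1759. The latter was near the adult mutant tags (4.60 and 3.71 CPM). In p20 controls the means were 110 CPM in tag 1 and 62 CPM in tag 2. The difference between genotypes (-2.27) turned to 0.50 without AM1758, was -3.17 without AM1759 and was lost without p20 control tag 2 (-1.92). The other decreases were Rnf11 (-2.20), Slco5a1 (-2.13), C1galt1 (-2.12), Abtb2 (-2.01), Fbxl18 (-1.98), Gbp7 (-1.95), Uprt (-1.95) and the RNA-binding protein gene Rbm12 (-1.91). In controls Rnf11, Slco5a1, C1galt1, Fbxl18, Gbp7 and Rbm12 also fell, and Abtb2 and Uprt were not called. Differences between genotypes were lost for Slco5a1 (-1.16) without AM1713 (-0.98), AM1758 (-0.94) or p20 control tag 1 (-1.10), and for Uprt (-1.40) without AM1713 (-1.22), p20 control tag 1 (-1.38) or p20 Dis3 cKO tag 1 (-1.29).

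Mcl1, a survival factor of the BCL2 family, was at 5.36, 11.8 and 17.8 CPM in adult and 27.6, 35.5 and 59.8 CPM in p20 mutants. No libraries overlapped, and Mcl1 fell by 1.75 in mutants and by 1.21 in controls. In the list of DNA damage and p53 family genes 5 of 20 were called higher and 4 lower, and without AM1757 4 and 5. Kitl, which encodes KIT ligand and was listed as a granulosa marker, was at 4.86, 10.9 and 20 CPM in adult and 28.4, 33.7 and 45.2 CPM in p20 mutants and also fell without overlap (-1.55). Its difference between genotypes (-0.84, adjusted p = 0.0373) was lost in 11 of the 24 fits that left out libraries (-0.92 to -0.77).

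To see which group set a difference between genotypes, each called gene was examined for a group whose 8 libraries all lay outside the range of the other 24. Among the 1082 positive differences, adult mutants were above all others in 130 genes, p20 controls above in 41, p20 mutants below in 36 and adult controls below in 6. Among the 885 negative differences, adult mutants were below all others in 130 genes, p20 mutants above in 24, p20 controls below in 24 and adult controls above in 17. Over all 16173 genes tested, adult mutants were above in 182 and below in 143, p20 controls above in 59 and below in 28, p20 mutants above in 32 and below in 36, and adult controls above in 23 and below in 7.

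The 16 genes with the largest differences under the naming rule were mostly set by a p20 group. In 6 of the 8 largest positive ones p20 controls were above all other libraries: Prr15l, Ptprv, Gba2, Stra6l, Rbm44 and Mapkapk2. Rbm44, an RNA-binding protein gene of germ cells, was at 60.2, 88.8 and 102 CPM in p20 controls and at 10.9 to 22.7, 8.23 to 21.7 and 7.24 to 13.1 CPM in p20 mutants, adult mutants and adult controls. Only the p20 controls were high, and the difference was 2.49 ± 0.24 (adjusted p = 4.97e-09). Gba2, a glucosylceramidase, was at 18.8 to 29.7 CPM in p20 controls and at most 4.51 CPM elsewhere (2.64 ± 0.33). Prr15l was at 18.1 to 34.5 CPM in p20 controls and at most 0.422 CPM elsewhere, so its fitted difference depends on the prior count, and it was lost without AM1713. Myo7a, an unconventional myosin, and Rhbdf1 were lowest in p20 mutants, Myo7a at 0 to 0.530 CPM there and 2.35 to 8.48 CPM in adult mutants.

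Of the 8 largest negative differences, 5 had p20 controls below all other libraries: Pxdn, Tmem175, Cntn2, Trim15 and Rgl2. Pxdn, encoding the matrix enzyme peroxidasin, was at 0, 0.0273 and 0.488 CPM in p20 controls, 252, 282 and 328 CPM in p20 mutants, 43.6, 95.6 and 134 CPM in adult mutants and 110.2, 131 and 156 CPM in adult controls. The p20 controls were near 0 and the p20 mutants above all others. Tmem175, a lysosomal ion channel, was at 0.684 to 3.05 CPM in p20 controls and at 43.3 to 64.9, 53.4 to 79.1 and 52.3 to 63.4 CPM in p20 mutants, adult mutants and adult controls (-4.86 ± 0.24, adjusted p = 1.41e-16). Kctd21 and Slc7a1 are described above, and for Nptx2, a secreted pentraxin (-2.56 ± 0.27), no group was fully apart. For levels near 0 in a single group, the mice and the preparation of that group cannot be told apart.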

How the data were processed

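Single mouse oocytes were sequenced after ribosomal RNA depletion (RiboMinus, Ovation Solo kit with random hexamers, per the labels), with an ERCC spike-in. The authors deposited whole-number counts per gene and per ERCC transcript for each library; the submitters' processing notes name mm10, cutadapt 2.5, STAR 2.7.2a, SAMtools 1.9 and HTSeq 0.9.1, in no stated order. Whether counting used strand is not given in the sources used here, so overlapping and antisense genes are uncertain, and reads carry no molecular identifiers. Of 55487 gene identifiers 99.4% matched a symbol.

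Counts of 32 libraries (16 Dis3 cKO, 16 control) were fitted together with edgeR 4.0.16 in R 4.3.3 (TMM, filterByExpr, quasi-likelihood F test, Benjamini-Hochberg threshold 0.05) over 16173 genes. Shares and ERCC ratios were tested with exact permutation tests (scipy 1.17.1, 2-sided), and their genotype differences with 100000 resamples. Errors are standard errors of log2 values. Alternatives were other scalings and filters, DESeq2 1.42.0, limma 3.58.1, sums per tag, a replicate block and leaving out each tag or mutant library. Scripts were tested on simulated data.

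Genes named for size were the 12 largest increases and decreases, and the 8 largest genotype differences each way. They had to have a symbol other than a Gm number, Rik or accession, be called, reach a mean of 20 CPM (in the higher group, or in any of the 4 for genotype differences) and vary at most 4-fold in CPM + 1 within a group. Increases and decreases also had to have no overlap between the ages. The comparison, its gene lists and the other genes were chosen with earlier results of these data known. Poly(A) and chromatin files of the series were not used here.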

Additional observations from a re-analysis of the deposited data

Results flagged for a closer look

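A single oocyte lay far from the other 7 of its group in 26 of 182 groups of 8 libraries examined, by the gap to its nearest neighbour over the whole range, where chance gives about 5%. The p20 Dis3 cKO library 1_4 had 547 gene counts per ERCC count, 0.123% cytosolic ribosomal protein messages, Dis3 at 4.01 CPM, Trim68 at 14.8 CPM and Mael at 90.8 CPM. In library 1_2 of that group Abtb2 was at 65.8 CPM, Fbxl18 at 118.8 CPM, Ddx6 at 211 CPM and Trim15 at 86.3 CPM. Library 2_3 had Dlgap1 at 10.4 CPM, Fut10 at 2.13 CPM and Hist1h3f at 236 CPM. Rhbdf1 was at 1.38 CPM in library 1_1, Cnot1 at 439 CPM in library 2_1, and Pabpn1l at 69.3 CPM and Prr15l at 0.422 CPM in library 2_4.

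Among adult Dis3 cKO oocytes, all of the libraries that stood apart carried the tag AM1713. Histone messages were 0.382% of counts, Hist1h3f was at 909 CPM and Hist1h4a at 198.5 CPM in AM1713_1. Nlrp5 was at 681 CPM, Kctd21 at 7.58 CPM, Kmt2a at 52.4 CPM and Prr15l at 0.265 CPM in AM1713_3. Rhbdf1 was at 32.9 CPM, Sspn at 6.14 CPM and Rbm44 at 21.7 CPM in AM1713_4. What the tag stands for is not given, and its part in these values was not tested beyond leaving it out of the fits per gene.

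The change from p20 to adult differed between genotypes, by a test of the difference itself, in 4 shares of counts and in the genes below, all as log2 values of the change in Dis3 cKO minus that in controls. The shares gave 0.22 for lncRNA, 1.39 for mitochondrially encoded messages, 0.20 for cytosolic ribosomal protein messages and 0.70 for histone messages. Positive differences were Prr15l 9.12, Ptprv 5.56, Rhbdf1 5.51, Myo7a 5.19, Gba2 2.64, Stra6l 2.56, Rbm44 2.49, Mapkapk2 1.96, Dlgap1 1.70, Tex16 1.52, Fut10 1.74 and Ddit3 0.93. Further positive values were Hist1h3f 0.90, Dusp23 1.86, Trim68 1.55, Cdc34b 1.58, mt-Nd4 1.32, Smarcc2 1.63, Tug1 0.72, Snhg18 1.31, 4732416N19Rik 2.44, Gm11190 2.75, mt-Nd1 1.39 and mt-Cytb 1.49. Further positive values were mt-Co1 0.83, Hist1h4c 1.22, Hist1h2bj 0.54, Rps15a 0.67, Arpp19 0.75, Kmt2a 3.63, Srrt 1.30 and Rpph1 1.36. Negative differences were Pxdn -11.43, Tmem175 -4.86, Kctd21 -4.30, Cntn2 -4.06, Trim15 -2.89, Nptx2 -2.56, Slc7a1 -2.46, Rgl2 -2.29, Sspn -2.27, Slco5a1 -1.16, Slc35a1 -1.96 and Uprt -1.40. Further negative values were Rbm12 -1.18, C86187 -0.84, Rictor -0.75, Nlrp5 -0.49, Tle6 -0.39, Pde3a -1.03, Dnmt1 -0.73, Xrn1 -0.91, Cnot1 -0.26, Exosc9 -1.02, Cd9 -0.74 and Kitl -0.84.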

How the results depend on the processing

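With ERCC counts as the scale, 132 genes were higher and 13754 lower in adult Dis3 cKO oocytes, and the difference between genotypes was called for 250 positively and 364 negatively. Under that scale the change in mutants turned negative for Cbfa2t3 -0.055, Cdc34b -0.15, mt-Nd4 -0.27, Smarcc2 -0.14, Exosc10 -1.73, Tug1 -1.24, Snhg18 -0.65, mt-Cytb -0.30, mt-Co1 -0.83, Rheb -1.66, Oosp1 -1.35, Zbed3 -1.39, Hist1h1a -0.28, Hist1h4a -0.37, Hist1h4c -0.56, Hist1h2bj -1.02, Rps15a -0.89, Psmd4 -1.26, Arpp19 -1.34, Ccnb1 -1.48, Cdc20 -1.33, Btg4 -1.57, Srrt -0.71, Mael -1.10, Pabpn1l -1.28 and Rpph1 -0.15. With counts summed per title tag 1757 genes were higher and 1932 lower, and the genotype difference left 40 and 52. With limma voom and the tag as a random effect 2327 were higher and 2609 lower, and the genotype difference left 280 and 375. With 1 mean per tag the 6 library quantities could not change in size, as every tag has the same number of libraries. Values were -1.99 for gene counts per ERCC count, 0.28 for lncRNA and 1.77 for mitochondrial messages. They were 1.65 for 7S-type, 0.41 for ribosomal protein and 1.44 for histone messages. None of the 6 could pass, since 2 tags against 2 allow no exact p under 0.333. Leaving out 1 tag or library gave 2652 to 3573 higher and 2554 to 3275 lower genes, and 466 to 1748 positive and 508 to 1863 negative genotype differences. For the library quantities only single mutant libraries were left out, and no whole tag. Gene counts per ERCC count then ranged from -2.11 to -1.88, 7S-type messages from 1.49 to 1.85 and ribosomal protein messages from 0.36 to 0.46. The range was 0.24 to 0.30 for lncRNA, 1.66 to 1.91 for mitochondrial and 1.32 to 1.52 for histone messages. Dis3 turned to 0.14, 0.13 and 0.05 without AM1757, p20 tag 1 or library 1_4, Exosc10 to -0.015 without AM1757, and the genotype difference of Sspn to 0.50 without AM1758 (-3.17 without AM1759). The genotype difference lost its call in 17 of 24 such fits for Hist1h2bj and Rps15a, and in 9 for Kmt2a. The causes of these shifts were not tested.

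The p20 mutants and p20 controls share their title tags, which the labels do not call a pairing, and pairing by tag was not tested. Across all the groups oocytes share only the last number of their titles, and the labels do not say that it pairs them. A replicate block on that number gave 3565 higher and 3198 lower genes, and genotype differences of 1023 and 836, and ended the genotype-difference calls of Rps15a, Kmt2a and Kitl among the genes described. Tags, age and preparation coincide, depth was lower at p20, and counts near 0 give folds that depend on the prior count.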

Other observations

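In adult against p20 Dis3 cKO oocytes 60 of 307 tested zinc finger genes of the Zfp family were called higher and 80 lower with TMM scaling (median -0.09), against 23 and 68 in controls and 28 and 59 with summed tags, and the genotype difference was called for 30 positively and 17 negatively, against 6.69% and 5.47% of all genes. That call fell to 2 and 5 with ERCC scaling, 14 and 11 without AM1713, 7 and 9 with limma voom and the tag as a random effect, and 0 and 0 with summed tags, and was 50 and 34 without AM1757. Of 41 tubulin and spindle genes 13 were higher and 14 lower (median -0.11), against 11 and 5 in controls, without AM1757 10 and 8, and with summed tags 7 and 6. Of 80 nuclear genes of oxidative phosphorylation 17 were higher and 7 lower (median 0.11, and -1.82 with ERCC scaling), unlike the 7 of 7 higher mitochondrially encoded genes, and that contrast was not tested. Without AM1757 12 of the 80 were higher and 11 lower (median -0.03), and with summed tags 5 and 4. Of 38 genes of RNA polymerase II and elongation 8 were higher and 9 lower, and of 14 genes of Polycomb complex PRC2 and H3K27 demethylation 5 were higher and 2 lower. The Polycomb list had 2 higher and 3 lower without AM1757 (median -0.04), and 1 and 0 with summed tags. Of 17 oocyte transcription factor genes 3 were higher and 4 lower (median 0.10), and without AM1713 7 and 5 (median -0.05). Without AM1757 5 were higher and 6 lower (median -0.35).

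Of 53 tested lncRNAs named as opposite-strand or antisense transcripts 18 were higher and 3 lower (median 0.65, and -1.25 with ERCC scaling), and without tag AM1713 8 were higher and 3 lower, and with summed tags 4 and 1. Reads of such genes cannot be told apart from their partners' without strand. Of 12 host genes of small nucleolar RNAs 3 were higher and none lower (median 0.50, and -1.25 with ERCC scaling), and with summed tags 1 was higher.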
